A study of Mus musculus with 24 samples.

Results

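The salt-inducible kinase genes (Sik1, Sik2, Sik3), the genes of the CREB-regulated transcription coactivators (Crtc1, Crtc2, Crtc3) and the transcription factor genes Creb1 and Crem were followed in brown fat. These 8 genes were taken by name from a table of 36144 genes, and all 8 were among the 13129 genes with enough reads to be tested. Polyadenylated RNA of interscapular brown adipose tissue was sequenced from 24 mice aged 6 to 8 months, 1 library per mouse, in 4 groups of 6 with 3 females and 3 males each. The groups were Th-Cre mice given deschloroclozapine (DCZ), Th-Cre mice given saline, wild-type (WT, C57Bl/6J) mice given DCZ and WT mice given saline, each 30 minutes before the tissue was taken. In the Th-Cre line, named B6.129X1 in the labels, regulatory sequence of the tyrosine hydroxylase gene drives Cre recombinase, which places it in sympathetic neurons and other cells that make catecholamines. DCZ binds designer receptors derived from muscarinic receptors; which receptor was used, and how it reached the animals, is not stated in the labels.

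The cAMP pathway connects these genes. In a brown adipocyte noradrenaline acts on beta-adrenergic receptors, cAMP activates protein kinase A (PKA), and PKA phosphorylates CREB and CREM at a site that recruits the acetyltransferases CBP and p300. The SIKs, which are switched on by the kinase LKB1, phosphorylate the CRTCs, and phosphorylated CRTCs are held in the cytoplasm by 14-3-3 proteins. PKA phosphorylates and restrains the SIKs while calcineurin dephosphorylates the CRTCs, so that CRTCs enter the nucleus and bind CREB on cAMP response elements, among whose targets Sik1 itself is known as a negative feedback gene. The libraries measure transcripts, not the phosphorylation on which this switch rests.

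Sik2, Sik3 and Crtc3 are shown here by their promoter windows, because all 3 were higher in Th-Cre than in WT brown fat under DCZ and because the windows differ in cAMP response element letters. On GRCm38, Sik1 lies at chr17:31844250-31855804 on the minus strand, Sik2 at chr9:50892801-51009073 on the minus strand and Sik3 at chr9:46012820-46224194 on the plus strand. Crtc1 lies at chr8:70382355-70439579 (minus strand), Crtc2 at chr3:90254163-90264125 (plus strand), Crtc3 at chr7:80586627-80688877 (minus strand) and Creb1 at chr1:64532645-64604548 (plus strand), by GENCODE M21. The RefSeq promoter table on GRCm38.p6 was read from 250 bases before to 30 bases after the start, and Sik2, Sik3, Crtc3, Creb1 and Crtc1 were matched in it by symbol. Crtc2 and Sik1, which was also higher in Th-Cre than in WT brown fat under DCZ, had no match in it. Capitals mark the half-sites of the cAMP response element, TGACG or, on the other strand, CGTCA; the full element TGACGTCA holds both, which overlap in it.
Sik2, chr9:51009044-51009323, minus strand: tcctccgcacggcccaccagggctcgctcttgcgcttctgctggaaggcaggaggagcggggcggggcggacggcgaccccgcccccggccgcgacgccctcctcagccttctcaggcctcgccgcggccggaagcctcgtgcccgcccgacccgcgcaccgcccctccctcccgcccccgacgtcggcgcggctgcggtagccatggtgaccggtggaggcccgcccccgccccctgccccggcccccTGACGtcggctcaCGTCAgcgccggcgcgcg
Sik3, chr9:46012570-46012849, plus strand: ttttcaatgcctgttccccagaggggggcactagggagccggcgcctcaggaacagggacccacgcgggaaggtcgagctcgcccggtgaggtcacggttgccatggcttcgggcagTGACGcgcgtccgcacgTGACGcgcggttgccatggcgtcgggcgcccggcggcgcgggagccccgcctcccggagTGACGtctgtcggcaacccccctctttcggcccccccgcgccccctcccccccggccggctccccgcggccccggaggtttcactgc
Crtc3, chr7:80688848-80689127, minus strand: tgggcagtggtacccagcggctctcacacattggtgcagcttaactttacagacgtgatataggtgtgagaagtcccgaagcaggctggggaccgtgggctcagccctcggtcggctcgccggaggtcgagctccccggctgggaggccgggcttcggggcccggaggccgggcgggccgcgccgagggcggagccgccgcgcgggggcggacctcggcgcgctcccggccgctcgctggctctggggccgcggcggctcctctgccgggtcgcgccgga

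The Sik3 window holds 3 half-sites, all written TGACG, whose first bases lie at -133, -116 and -57 from the start. The Sik2 window holds 2, TGACG with its first base at -1 and CGTCA with its first base at 13, where base 1 is the start. The Crtc3, Creb1 and Crtc1 windows hold neither half-site, and none of the 5 windows holds the full element. A half-site occurs in 19.9% and the full element in 1.74% of 32851 promoter windows of this length. A match of letters is a description of the window and says nothing of binding.

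The libraries held 11.9 to 22.9 M counts each, and levels are given as counts scaled to library size (CPM, counts per M reads). The 8 brown adipocyte markers examined, Ucp1 among them, summed to at least 4280 CPM in every library. In 6 libraries skeletal muscle markers were raised (mean log2 CPM of 13 markers above 1, against at most 0.47 in the others): Th-Cre DCZ DN2075 and DN2091, Th-Cre saline DN2086, DN2087 and DN2094, and WT saline 12. Sympathetic neuron markers, whose cell bodies lie outside the tissue, summed to 0.0447 to 0.347 CPM in Th-Cre DCZ libraries. In the other groups they summed to 0 to 0.194 CPM. These sums rest on very few reads, and none of the 5 markers was tested.

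Per length of transcript, Sik2 and Sik1 were the most abundant of the 8 genes and Crtc1 the least. CPM were divided by the length of the longest coding transcript in the basic GENCODE set, and the values are means ± SD over the 24 libraries. Sik2 stood at 38.0 ± 10.4 CPM per kb and Sik1 at 28 ± 12.1, neighbours whose spreads overlap and whose order turns round when the length of all annotated exons is used (21.4 for Sik2 and 24.7 for Sik1). Crtc2 followed at 12.6 ± 1.08 CPM per kb, as the most abundant of the 3 coactivator genes, and Sik3 at 6.81 ± 0.966. Crem stood at 3.30 ± 0.431, Crtc3 at 2.26 ± 0.429, Creb1 at 2.26 ± 0.209 and Crtc1 at 1.46 ± 0.151 CPM per kb; Crtc3 and Creb1 do not differ beyond their spread. The counts behind these levels ran from 96 to 189 per library for Crtc1, the lowest gene, and from 1600 to 5209 for Sik2, the highest. The genes also differed in how much they varied between mice: the biological coefficient of variation was 31.0% for Sik1, above that of 90.6% of the genes tested, against 8.47% for Crtc2, above that of 11.3%. This is the spread left after group means and a common sex effect, so a sex difference that varies between groups counts in it.

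**Figure D1:**
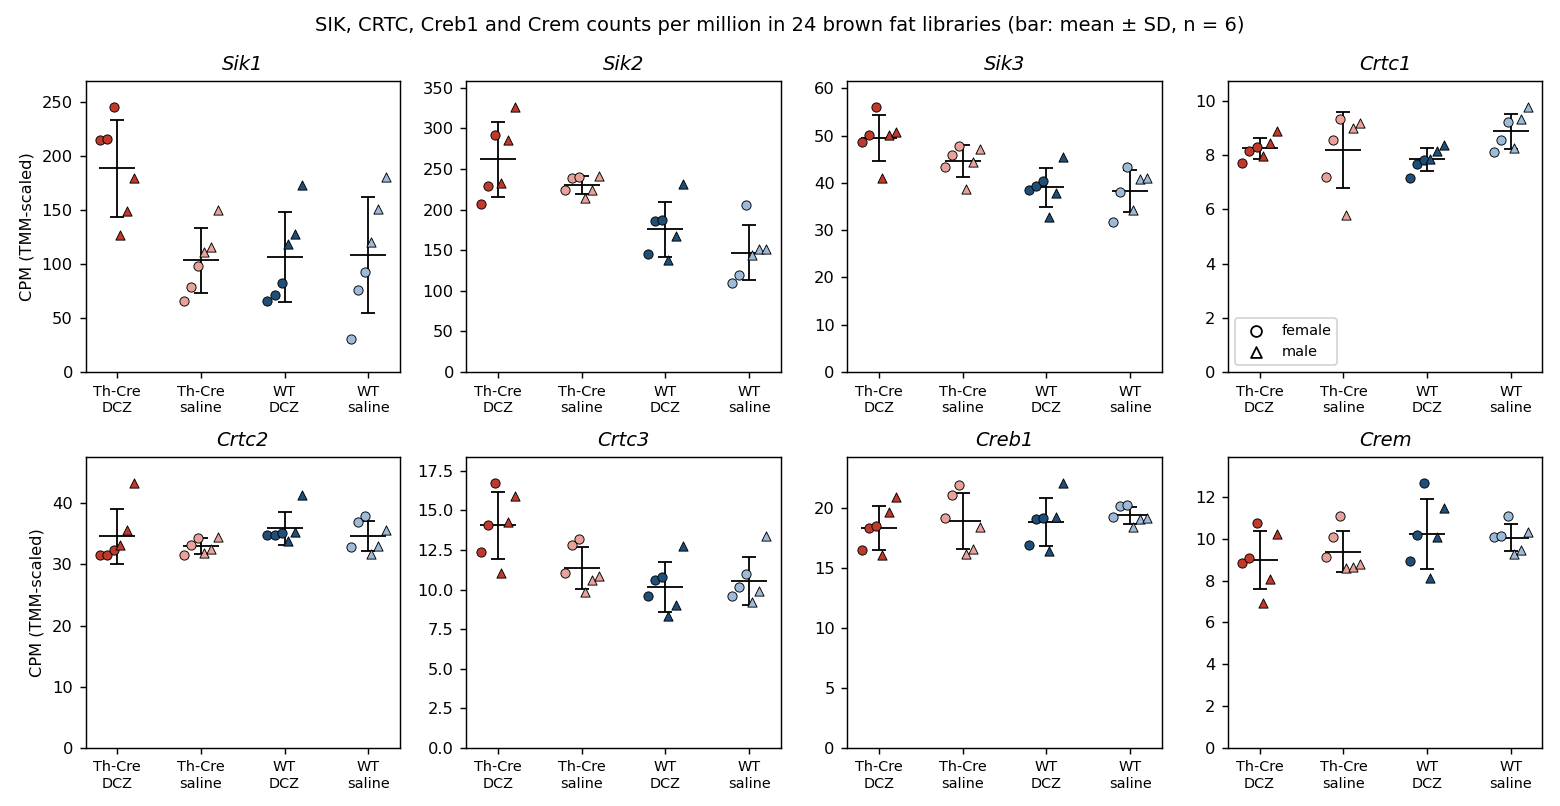
Level of each gene in CPM (vertical axis, starting at 0) in the 24 libraries by group, with females as circles, males as triangles and bars for the mean ± SD (n = 6). Sik1 has its highest mean in Th-Cre mice given DCZ, at 188 ± 44.9 CPM, with libraries that overlap those of the other groups, Sik2 is lowest in the WT groups, and Crtc1, Crtc2, Creb1 and Crem lie at like heights in all 4 groups.

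The first comparison asks how these genes differed between Th-Cre mice given DCZ and Th-Cre mice given saline. None of the 8 genes passed the test after adjustment over all genes, and Sik1 showed the largest difference. In Th-Cre mice given DCZ, Sik1 stood at 215, 216 and 245 CPM in the 3 females and at 126, 149 and 179 CPM in the 3 males. In Th-Cre mice given saline it stood at 65.6, 78.8 and 97.9 CPM in the females and at 111, 116 and 150 CPM in the males. Of the 6 DCZ libraries, 4 lay above every saline library, and both others were male. The difference was 0.98 ± 0.263 on the log2 scale (SE; 95% interval 0.43 to 1.52), 1.97-fold, with an unadjusted p of 0.00106 (rank 50 of 13129 genes) and an adjusted p of 0.277 by edgeR's quasi-likelihood test with Benjamini-Hochberg adjustment, so it did not pass the threshold of 0.05. Over all genes, 0.0229% passed in this comparison, and 745 of 13129 had an unadjusted p under 0.05. Of the 8 genes, 2 had an unadjusted p under 0.05 and 0 passed with DESeq2.

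The other 2 kinases did not pass the test with DCZ in Th-Cre mice either. Sik2 averaged 262 ± 46.0 CPM with DCZ and 230 ± 11.4 CPM with saline (SD, n = 6 each), a log2 difference of 0.18 with an interval of -0.09 to 0.46. Sik3 averaged 49.4 ± 4.85 CPM with DCZ and 44.6 ± 3.36 CPM with saline, a log2 difference of 0.15 (-0.03 to 0.32), and 5 of the 6 DCZ libraries lay above every saline library. Among the coactivators, Crtc3 had the other low unadjusted p. It ranged from 11.03 to 16.7 CPM with DCZ (median 14.2), against 9.82 to 13.2 CPM with saline (median 10.9), and 4 of the 6 DCZ libraries were above every saline library. Its log2 difference was 0.30 ± 0.116 (unadjusted p = 0.0155, adjusted p = 0.714 by the same edgeR test).

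Crtc1 and Crtc2, and the transcription factor genes that the coactivators bind, lay close together under DCZ and saline. Crtc1 averaged 8.25 ± 0.399 CPM with DCZ and 8.18 ± 1.40 CPM with saline, and Crtc2 averaged 34.6 ± 4.55 CPM with DCZ and 33.0 ± 1.24 CPM with saline. Creb1, which encodes the CREB that all CRTCs share, averaged 18.4 ± 1.84 CPM with DCZ and 18.9 ± 2.33 CPM with saline. Crem, whose transcripts include activators and the short cAMP-induced repressor ICER, averaged 8.98 ± 1.40 CPM with DCZ and 9.39 ± 0.990 CPM with saline. The table sums the transcripts of a gene, so ICER was not separated from the long forms. The 95% intervals of the log2 differences were -0.18 to 0.22 for Crtc1, -0.08 to 0.21 for Crtc2, -0.21 to 0.13 for Creb1 and -0.27 to 0.15 for Crem. The median log2 difference was 0.11 over the 8 genes and 0.00047 over all genes tested.

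In WT mice, which serve to show what DCZ is followed by in animals without Cre, none of the 8 genes passed the test, with 0 at an unadjusted p under 0.05 and 0 with DESeq2, and 0.00762% of all genes passed. Sik1 ranged from 65.4 to 173 CPM with DCZ (median 100.3), against 30.2 to 180 CPM with saline (median 106). The groups overlapped from end to end, and the log2 difference of -0.0039 had an interval of -0.54 to 0.53. Sik2 had a difference of 0.26 (-0.02 to 0.54), and Crtc1 one of -0.18 (-0.37 to 0.02), with 4 of the 6 DCZ libraries below every saline library. In WT mice DCZ and mouse number nearly coincide, since 5 of the mice numbered 1 to 6 had DCZ and 5 of those numbered 7 to 12 had saline. With a term for that split the Sik2 difference was -0.03 and the Sik1 difference 0.05. These estimates lean on WT saline mouse 2 and WT DCZ mouse 10, the only mice that break the split.

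The question of whether DCZ acted otherwise in Th-Cre than in WT mice was put to the interaction of genotype and treatment. For Sik1 the DCZ difference was larger in Th-Cre mice by 0.98 ± 0.367 on the log2 scale (0.22 to 1.74), with an unadjusted p of 0.0133 and an adjusted p of 0.607 by edgeR's quasi-likelihood test. For Crtc3 it was larger by 0.35 ± 0.164 (unadjusted p = 0.043, adjusted p = 0.657). The other 6 genes had interactions between -0.08 (Crem, and likewise Sik2) and 0.19 (Crtc1). None of the 8 passed, with 0.00762% of all genes called, and 0 passed with DESeq2. An unadjusted p under 0.05 was found for 2 of the 8, against 980 of all 13129 genes.

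Between the sexes, Sik1 did not pass the test over all mice and passed it in WT mice. Over all 24 mice Sik1 averaged 111 ± 71.0 CPM in females and 142 ± 25.5 CPM in males (SD, n = 12 each). The log2 difference, with the group means taken into account, was -0.55 ± 0.188, with an adjusted p of 0.0701 by edgeR's quasi-likelihood test, so none of the 8 genes passed, against 8.07% of all genes. Of the 8, 1 had an unadjusted p under 0.05, against 2980 of all 13129 genes, and 0 passed with DESeq2. Without Th-Cre DCZ mouse DN2072, DN2207 or DN2091 the Sik1 difference passed, at adjusted p = 0.0461, 0.0463 and 0.0275.

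The sexes were then taken apart by genotype with a model of 8 means, a comparison chosen after the Sik1 values were seen. In WT females Sik1 stood at 65.4, 71.7 and 82.2 CPM with DCZ and at 30.2, 75.6 and 92.2 CPM with saline. In WT males it stood at 118, 128 and 173 CPM with DCZ and at 120, 151 and 180 CPM with saline. Every WT female lay below every WT male. How many of all genes separate the WT sexes in this way was not counted, so the separation is a description. The female minus male difference in WT was -1.06 ± 0.187 (adjusted p = 0.00354, edgeR quasi-likelihood test), which passed in each of 24 fits that left out 1 library, and 2.5% of all genes passed in that comparison. In Th-Cre mice, over both treatments, the difference was -0.03 ± 0.184 (adjusted p = 0.954), where 1.61% of all genes passed. By treatment it took opposite signs and did not pass. It was -0.64 ± 0.262 under saline (unadjusted p = 0.0241, adjusted p = 0.352, edgeR quasi-likelihood test), where 0.305% of all genes passed. Under DCZ it was 0.57 ± 0.26 (unadjusted p = 0.0392, adjusted p = 0.372, same edgeR test), where 0.533% of all genes passed.

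Within Th-Cre mice, the 3 DCZ females were the 3 highest Sik1 libraries of the study and the saline females lay below the saline males. Females averaged 225 ± 17.0 CPM with DCZ and 80.8 ± 16.3 CPM with saline, and males averaged 152 ± 26.6 CPM with DCZ and 126 ± 21.1 CPM with saline (SD, n = 3 each). In females the DCZ difference was 1.48 ± 0.266 on the log2 scale (0.92 to 2.03), rank 3 of all genes, with an adjusted p of 0.0618 by edgeR's quasi-likelihood test, where 0.0152% of all genes passed. In males it was 0.27 ± 0.26 (-0.27 to 0.81; adjusted p = 0.98), where 0.00762% passed. With DESeq2, where 34 of all genes passed, the difference in females passed (adjusted p = 0.000901). The edgeR difference in females also passed when all genes with a read were kept (0.000887). It passed in 8 of the 24 fits that left out 1 library, and in the others the adjusted p reached 0.595. It passed without WT saline mouse 2, 7, 8, 9 or 12, WT DCZ mouse 3, Th-Cre saline mouse DN2087 or Th-Cre DCZ mouse DN2091, at adjusted p = 0.00101 to 0.0482.

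The differences between these differences were tested as well. The DCZ effect on Sik1 in Th-Cre mice was larger in females than in males by 1.21 ± 0.37 (0.44 to 1.98; unadjusted p = 0.0036, adjusted p = 0.422, edgeR quasi-likelihood test). Averaged over treatments, the female minus male difference was larger in Th-Cre than in WT mice by 1.03 ± 0.261 (0.48 to 1.57, unadjusted p = 0.000745, adjusted p = 0.362, same edgeR test). For both interactions 0% of genes passed in edgeR, with 903 and 900 genes at an unadjusted p under 0.05; DESeq2 passed 23 and 19 genes and 0 of the 8. Skeletal muscle markers moved with sex as well: 8 of 13 were higher in females over all mice, and of the 6 libraries in which they were raised 4 were female. Without those 6 libraries the female minus male difference of Sik1 in WT was -1.22 (adjusted p = 0.00312). Their removal leaves 1 Th-Cre female given saline, so the DCZ difference within Th-Cre females was not read without them. No other gene of the 8 had a female minus male difference over all mice beyond 0.15 in size, the largest being Crem at 0.15 (adjusted p = 0.224).

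**Figure D2:**
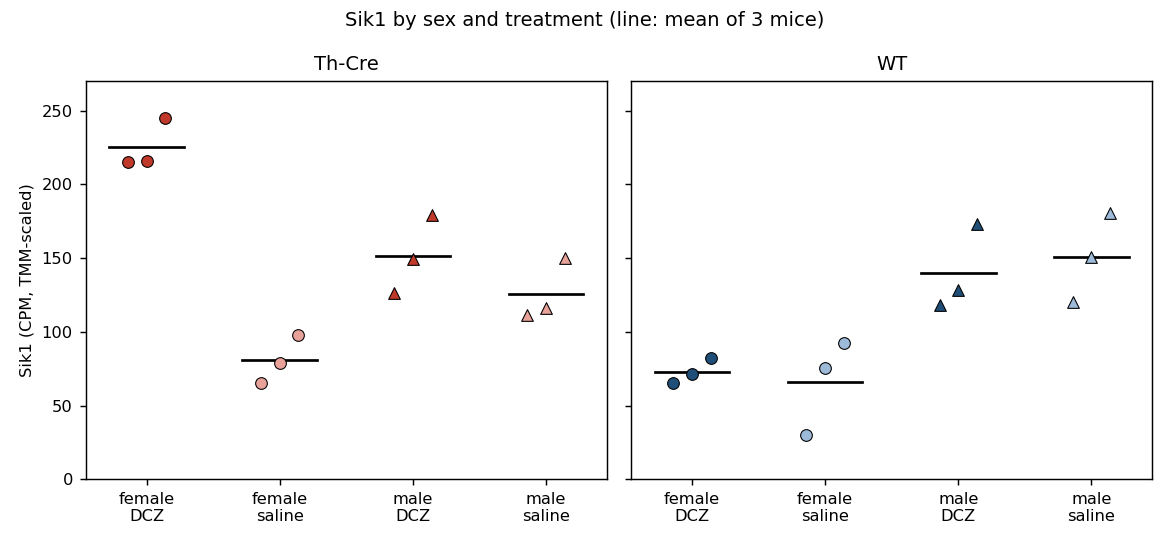
Sik1 level in CPM (vertical axis, starting at 0) in the 24 mice by sex and treatment, Th-Cre on the left and WT on the right, with a line at the mean of the 3 mice. The 3 Th-Cre females given DCZ lie at 215 to 245 CPM, above all other mice, and the 6 WT females lie below the 6 WT males.

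The make-up of the SIK family was described as shares. As a share of the 3 kinase genes per kb, Sik1 took 42.1 ± 7.74% in Th-Cre mice given DCZ, 31.0 ± 6.48% in Th-Cre mice given saline, 36.9 ± 9.51% in WT mice given DCZ and 39.7 ± 13.6% in WT mice given saline (SD, n = 6 each). Sik2 took 49.8 ± 7.64%, 59.2 ± 5.43%, 52.9 ± 8.77% and 49.0 ± 10.6% in the same groups. In Th-Cre females the Sik1 share was 42.9 to 53.8% with DCZ, against 21.8 to 30.7% with saline. In Th-Cre males it was 35.0 to 36.6% with DCZ, against 34.2 to 39.4% with saline. These shares are descriptions, were not tested, and rest on the length of the longest coding transcript. By the length of all annotated exons Sik1 averaged above Sik2 in every group but Th-Cre saline. In Th-Cre mice given DCZ the means by that length were 36.7 and 27.5 CPM per kb. Of the CRTC family Crtc2 took 74.9 to 79.5% on average in the 4 groups, and Crtc3 took 16.4 ± 2.27% in Th-Cre mice given DCZ, against 12.1 ± 1.15% in WT mice given DCZ.

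**Figure D3:**
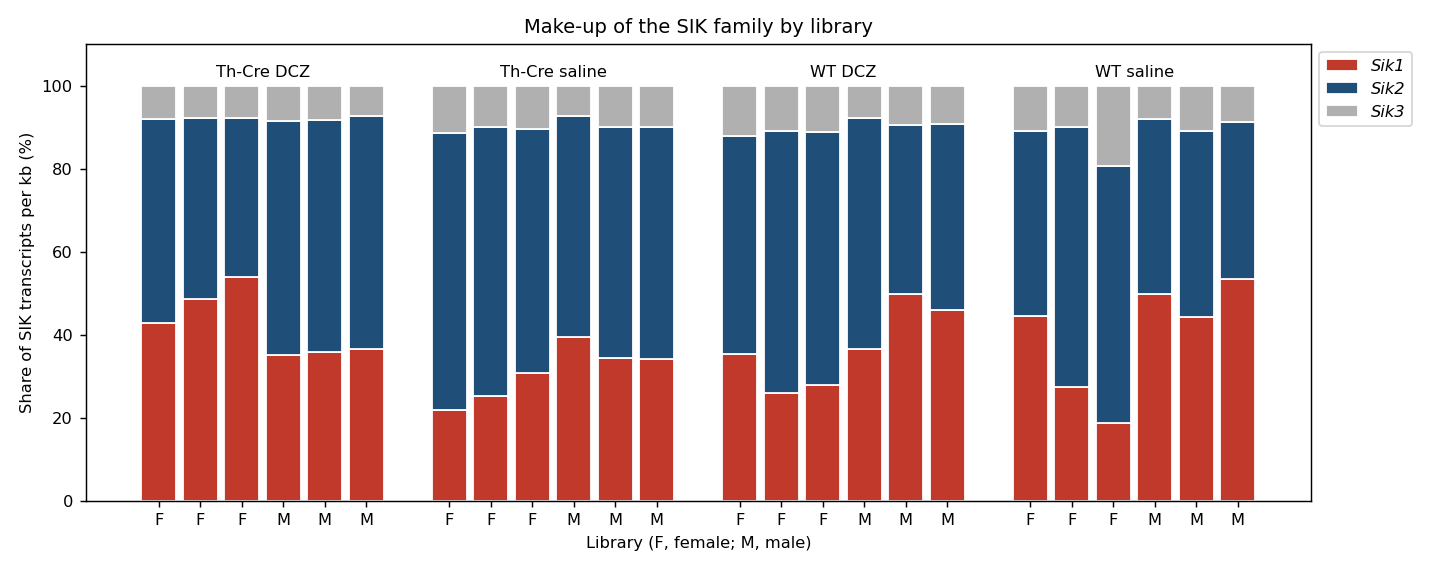
Share of the SIK family taken by each kinase gene (vertical axis, percent of summed CPM per kb; the bars start at 0) in each library, by group and sex. The Sik1 share of Th-Cre females is 42.9 to 53.8% with DCZ and 21.8 to 30.7% with saline. By the length of the longest coding transcript, used here, Sik3 is the smallest share in every library but WT saline 8, where Sik1 took 18.7% and Sik3 19.3%. By the length of all annotated exons Sik3 was the smaller there too: in WT saline libraries Sik1 was at least 5.88 and Sik3 at most 4.66 CPM per kb.

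Sik2, the SIK best known from adipose tissue, was higher in Th-Cre than in WT mice under saline. It stood at 214, 224, 224, 239, 240 and 241 CPM in the Th-Cre saline libraries, against 110, 119, 144, 151.7, 151.8 and 206 CPM in the WT saline libraries. All 6 Th-Cre libraries lay above all 6 WT libraries, and the Th-Cre values spanned a narrow range (coefficient of variation 4.94%, against 22.9% in WT saline). The difference was 0.65 ± 0.135 on the log2 scale, 1.57-fold, with an adjusted p of 0.0026 by edgeR's quasi-likelihood test. It was the 1 of the 8 genes that passed, where 24.9% of all genes passed and 12.5% passed with a higher level, and where the groups stood apart upward in 2.81% of all genes. Sik3 averaged 44.6 ± 3.36 CPM in Th-Cre saline mice and 38.3 ± 4.47 CPM in WT saline mice, a log2 difference of 0.22 ± 0.0845 (adjusted p = 0.0577). The Sik3 difference passed with DESeq2 (adjusted p = 0.0423) and without WT DCZ mouse 3 or 5, WT saline mouse 7, 8 or 9, Th-Cre saline mouse DN2087 or Th-Cre DCZ mouse DN2091 (adjusted p = 0.0341 to 0.0469).

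Other measures moved with genotype beside Sik2. All Th-Cre libraries had higher library numbers than all WT libraries, so genotype and library number cannot be told apart. Of the 13 skeletal muscle markers 12 had a positive difference under saline, with a median of 2.53. None of them passed, and 8 had an unadjusted p under 0.05. Without the 6 libraries with muscle transcripts, which leaves 3 Th-Cre saline and 5 WT saline mice, the Sik2 difference under saline was 0.51 with an adjusted p of 0.0887. Within males alone it was 0.60 (adjusted p = 0.0506) and within females alone 0.69 (adjusted p = 0.114). The summed level of 8 brown adipocyte markers was 5008 to 6819 CPM in Th-Cre saline libraries, against 6882 to 9496 CPM in WT saline libraries, without overlap, while the mean log2 CPM of the 8 overlapped, at 7.96 to 8.44 in Th-Cre saline and 8.09 to 8.53 in WT saline libraries. The list went both ways: Ucp1, Cox7a1 and Cox8b fell, none rose, and 4 of the 8 had a positive difference, led by Elovl3 at 0.54 (adjusted p = 0.0684), with a median of -0.02. The 5 endothelial markers, at 452 to 511 CPM in Th-Cre saline and 486 to 878 CPM in WT saline, all fell. Of the 4 white adipocyte markers tested none had a positive difference and 1 fell. The part of these markers in the Sik2 result was not tested, and in bulk tissue fewer cells of a type and less RNA per cell cannot be told apart. Sik2 exons share 1429 annotated bases with exons of Ppp2r1b on the other strand, and the use of strand is not given in the sources used here. Ppp2r1b, a scaffold subunit gene of protein phosphatase 2A, averaged 52.3 ± 4.15 CPM in Th-Cre saline mice and 47.6 ± 5.91 CPM in WT saline mice, a log2 difference of 0.13 ± 0.0890 (adjusted p = 0.275).

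The remaining 6 genes did not pass between the genotypes under saline. Sik1 averaged 103 ± 29.8 CPM in Th-Cre saline mice and 108 ± 54.0 CPM in WT saline mice, with a log2 difference of -0.02 (-0.56 to 0.52). Crtc3 differed by 0.11 (-0.13 to 0.35), Crtc2 by -0.07 (-0.22 to 0.08) and Crtc1 by -0.12 (-0.32 to 0.08). Creb1 differed by -0.04 (-0.21 to 0.13) and Crem by -0.10 (-0.31 to 0.11), with 4 of the 6 Th-Cre libraries below every WT library for Crem.

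Between Th-Cre and WT mice that had both been given DCZ, all 3 kinase genes and Crtc3 rose. These 4 of the 8 genes passed, where 13.8% of all genes passed and 6.75% passed with a higher level. Sik1 ranged from 126 to 245 CPM in Th-Cre DCZ mice (median 197), against 65.4 to 173 CPM in WT DCZ mice (median 100.3), with 4 of 6 Th-Cre libraries above every WT library. Its log2 difference was 0.96 ± 0.264 (adjusted p = 0.0194, edgeR quasi-likelihood test), 1.95-fold. Sik2 ranged from 206 to 326 CPM (median 259), against 137 to 231 CPM (median 177), and differed by 0.57 ± 0.135 (adjusted p = 0.00939).

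Sik3 ranged from 41.0 to 56.0 CPM in Th-Cre DCZ mice (median 50.1), against 32.9 to 45.6 CPM in WT DCZ mice (median 38.9), with 5 of 6 Th-Cre libraries above every WT library, and rose by 0.34 ± 0.0840 (adjusted p = 0.0125, edgeR quasi-likelihood test). Crtc3 ranged from 11.03 to 16.7 CPM (median 14.2), against 8.34 to 12.8 CPM (median 10.1), and rose by 0.46 ± 0.115 (adjusted p = 0.0126). The groups overlapped for all 4 genes. Each of the 4 passed in all 24 fits that left out 1 library and also without the 6 libraries with muscle transcripts. Within one sex the calls were fewer: in females Sik1 alone passed, and in males Sik2 alone, where Sik1 stood at 0.12 (adjusted p = 0.726). Without a term for sex Sik1 stood at 0.82 (adjusted p = 0.0721). The other 4 genes lay between -0.19 (Crem) and 0.07 (Crtc1). Markers of cell types differed here too. The summed brown adipocyte markers stood at 4280 to 6645 CPM in Th-Cre DCZ libraries, against 7021 to 9796 CPM in WT DCZ libraries, but the 8 genes went both ways: Ucp1, Cox7a1 and Cox8b fell, Adrb3 rose, and 3 had a positive difference. Of the 5 endothelial markers, at 428 to 555 CPM in Th-Cre DCZ and 503 to 721 CPM in WT DCZ, 2 fell and none was positive. Of the 13 muscle markers 12 were positive and 3 rose, with sums of 48.1 to 690.0 CPM in Th-Cre DCZ and 55.5 to 87.8 CPM in WT DCZ. Of the 5 macrophage markers, at 24.8 to 52.6 CPM in Th-Cre DCZ and 24.4 to 51.9 CPM in WT DCZ, 4 were positive and 3 had an unadjusted p under 0.05 without passing. The part of these markers in the results was not tested.

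**Figure D4:**
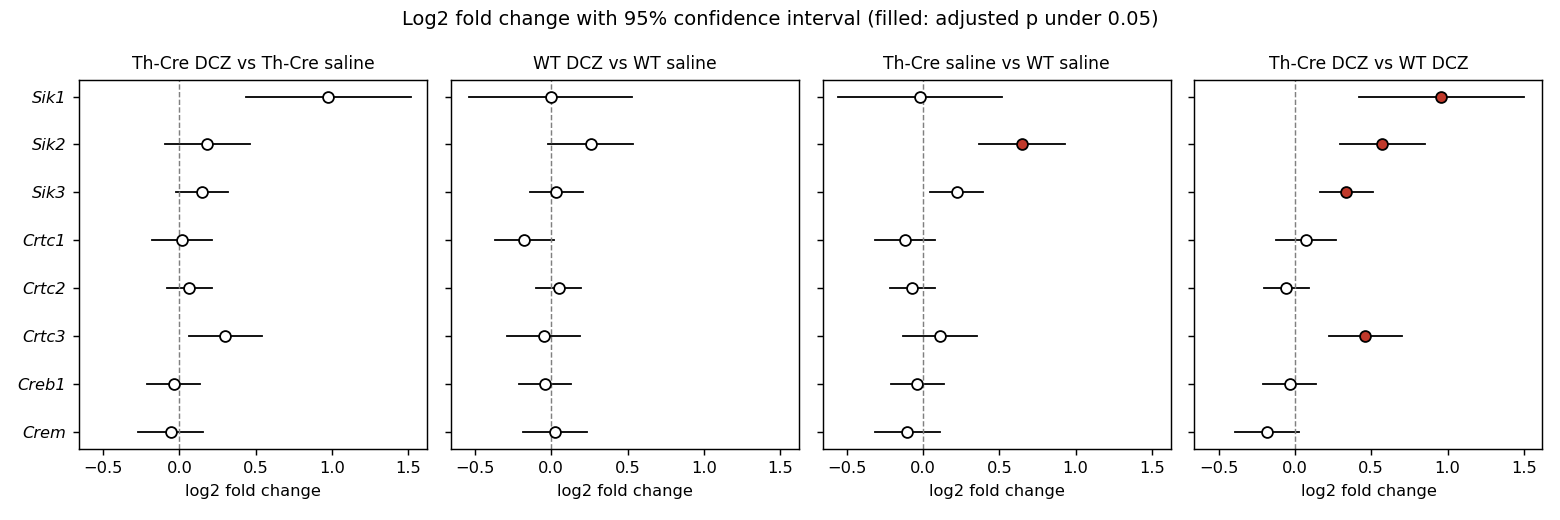
Log2 fold changes of the 8 genes (horizontal axis) with 95% confidence intervals in the 2 treatment and the 2 genotype comparisons, filled where the adjusted p was under 0.05. Sik2 is filled in both genotype comparisons, at 0.65 under saline and 0.57 under DCZ, and no gene is filled in the treatment comparisons.

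The genes around the switch were read from lists of its enzymes and partners. With DCZ in Th-Cre mice, none of the 6 PKA subunit genes, the 5 genes of the LKB1 complex, the 4 calcineurin genes, the 7 14-3-3 genes, the 7 tested class IIa HDAC and MEF2 genes or the 4 other CREB partners passed, nor did any with DESeq2. At an unadjusted p under 0.05 there were Hdac4 at 0.24 ± 0.102, which encodes another SIK substrate, and 2 CREB partners, Crebbp (CBP) at 0.17 ± 0.0681 and Atf1 at 0.15 ± 0.0717. For Hdac4 the interaction with genotype was 0.52 ± 0.144 (unadjusted p = 0.00145, adjusted p = 0.427 by edgeR), and for Crebbp it was 0.33 ± 0.0961 (unadjusted p = 0.0024, adjusted p = 0.493).

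Upstream genes differed between the genotypes under saline, where 24.9% of all genes passed and 12.5% passed with a higher level. Of the 6 PKA subunit genes 5 rose in Th-Cre mice, among them the catalytic subunits Prkacb (0.54 ± 0.101) and Prkaca (0.32 ± 0.0630). The remaining subunit gene was lower in Th-Cre mice, at an unadjusted p under 0.05 without passing. Of the 4 calcineurin genes 3 rose, led by Ppp3cb (0.39 ± 0.0714). In the LKB1 complex Cab39, which encodes the scaffold MO25, rose by 0.50 ± 0.0821, and Stk11, the LKB1 gene itself, fell by 0.18 on the log2 scale. Of the 14-3-3 genes 3 rose, led by Ywhag (0.50 ± 0.0898), and Sfn fell. Hdac7 and Mef2c fell, by 0.52 and 0.40. The median log2 difference was 0.32 for the PKA subunits and 0.28 for calcineurin, against -0.01 over all genes. Here too genotype cannot be told apart from library number. Muscle transcripts were raised in more Th-Cre saline than WT saline libraries, and far fewer genes passed under saline without the libraries that held them. Whether these lists differ between the genotypes without those libraries was not tested. Under DCZ, where 13.8% of all genes passed, the same genotype comparison gave 2 PKA subunit genes, Cab39, Stradb, Ywhag and Hdac4 (0.41 ± 0.102) higher and Stk11 lower, and no calcineurin gene passed with edgeR (1 at an unadjusted p under 0.05) or DESeq2.

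A list of known CREB targets was read as well, although the activity of CREB and the CRTCs was not measured. Of 19 listed, 18 were tested, and the list was chosen with earlier results of these libraries known, so its direction is not independent evidence. With DCZ in Th-Cre mice 16 of the 18 had a positive difference (median 0.72, against 0.00047 over all genes) and 1 passed, where 0.0229% of all genes did, the MAP kinase phosphatase gene Dusp1 at 1.27 ± 0.185 (adjusted p = 0.00472, edgeR quasi-likelihood test); Btg2 stood at 1.40 ± 0.297 (adjusted p = 0.0874). With DESeq2 2 of the 18 rose in Th-Cre mice, where 40 of all genes passed. In WT mice 7 of the 18 were positive (median -0.09), 0 passed with edgeR or DESeq2 and 1 had an unadjusted p under 0.05. Between Th-Cre and WT mice under DCZ, where 6.75% of all genes passed with a higher level, 10 rose, led by Dusp1, Nr4a1 (2.03 ± 0.346) and Irs2 (1.59 ± 0.293), and Ucp1, the brown fat uncoupling protein gene, fell by 0.96.

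The sex difference of Sik1 in WT mice had company among these targets. In WT females 14 of the 18 stood lower than in WT males (median -0.77, against -0.0015 over all genes) and 7 fell, where 2.5% of all genes passed in either direction, among them Rgs2 (-0.96 ± 0.147, adjusted p = 0.0011 by edgeR), Nr4a2 (-0.80 ± 0.166, adjusted p = 0.0112) and Fosb (-2.53 ± 0.574, adjusted p = 0.0213). With DESeq2 9 of the 18 fell in WT females, where 526 of all genes passed. In Th-Cre mice 10 of the 18 stood higher in females over both treatments (median 0.21). By treatment, 7 of the 18 stood higher under saline (median -0.16) and 14 of the 18 under DCZ (median 0.30). Averaged over treatments, the female minus male difference was larger in Th-Cre than in WT mice for 17 of the 18 (median 0.74). For Rgs2, the one with the smallest p, it was larger by 1.22 ± 0.206 (adjusted p = 0.0917 by edgeR). With DESeq2 3 of the 18 passed in that interaction, where 19 of all genes did.

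The genes most like each member were named by Pearson's r of log2 CPM over the 24 libraries after each group mean was taken off, as a description of libraries that share depth and tissue make-up. Sex was not taken off, so a shared sex difference counts in r. For Sik1 they were Ncald (0.86), Thbs1 (0.84) and Pde4b (0.84), a cAMP phosphodiesterase gene, and for Sik2 they were Lrig1 (0.93), Sec16a (0.92) and Erlin2 (0.89). Sik3 was most like Zfp628 (0.78), Setd1b (0.75) and Pqlc2 (0.75), and Crtc3 most like Pqlc2 (0.74), Cic (0.72) and Ptprc (0.72). Crtc1 was most like Meis3 (0.67), Gulp1 (0.64) and Gm14698 (0.61), and Crtc2 most like Bcl10 (0.85), Casc3 (0.80) and Bgn (0.79). Creb1 was most like Cpsf6 (0.74), Mettl3 (0.73) and Pik3ca (0.69), and Crem most like Prps1l3 (0.82), Nptn (0.79) and Gk (0.75). Among the 8 genes the closest pair was Sik3 and Crtc3, with r = 0.61 within groups, and Sik1 stood within 0.21 of zero with each of the other 7.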

How the data were processed

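RNA was prepared with a Tri-Isolate kit, poly-A selection and Illumina TruSeq libraries, per the labels' protocols. Reads were processed with kallisto 0.44.0 against GRCm38.p6, per the submitters' processing notes; how transcripts were summed to genes is not given in the sources used here. The values used are estimated counts per gene symbol, deposited by the authors as whole numbers. Genes low in all groups were removed with filterByExpr, libraries were scaled by TMM, and CPM are on that scale. Each gene was modelled in edgeR 4.0.16 (R 4.3.3) on the 24 libraries together, with group means plus a sex effect, and tested by quasi-likelihood with Benjamini-Hochberg adjustment over 13129 genes at 0.05. SE is the log2 difference divided by the square root of F. Sexes within a genotype were tested with 8 means. DESeq2 1.42.0 was an alternative. The code was tested on simulated data. P-values rest on the spread between mice. The 8 genes and all lists were chosen with earlier results of these data known. Named list genes were the at most 4 with the smallest p past the threshold per list and, for DCZ, also the 2 with the smallest p. Other deposited tables, normalized within each genotype, were not used.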

Additional observations from a re-analysis of the deposited data

Results flagged for a closer look

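Crtc2 had a single high library in each DCZ group, found by the gap of the end library to its neighbour against the range of 6 (32 gene and group pairs were examined, and chance marks about 1 in 20). Among Th-Cre mice given DCZ, male DN2097 stood at 43.3 CPM and the next at 35.7 CPM. Among WT mice given DCZ, male 3 stood at 41.4 CPM and the next at 35.3 CPM. No cause was tested.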

How the results depend on the processing

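Of the 4 genes called between the genotypes under DCZ and Sik2 under saline, each kept its direction in every alternative run. Of 34 planned and 1 added results that changed sign, none was past the threshold in either fit. Genes called and, where they changed, members called or log2 values that changed sign were as follows. With all genes with a read kept, 20, 0 and 8 genes passed (DCZ in Th-Cre, DCZ in WT, interaction), 1 member passed between the sexes (Sik1, adjusted p = 0.0434), and values turned for Sik1 with DCZ in WT (0.0089) and in the interaction for Crtc2 (-0.0013) and Creb1 (-0.011). With DESeq2, 40, 12 and 16 genes and 2 members under saline passed, and Sik1 in WT (0.0031) and Creb1 in the interaction (-0.0041) turned; with RLE scaling the same values were 0.0011 and -0.0050. Without a term for sex 0 genes passed in WT and 2 in the interaction. With the term for WT mouse number 0 and 0 passed, with Sik1 at 0.047 and Sik2 at -0.032 in WT and Sik2 at 0.21, Crtc2 at -0.0066 and Creb1 at -0.0087 in the interaction.

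In males alone 1, 0 and 0 genes passed in those comparisons, 658 genes and 0 members between genotypes under saline, and 735 genes and 1 member under DCZ; Creb1 (0.15) in Th-Cre, Sik3 (-0.0042) and Creb1 (0.022) in WT, Sik2 (0.058) in the interaction, Crtc3 (-0.055) under saline and Crtc2 (0.021) under DCZ turned. In females alone 0 and 0 genes passed in WT and the interaction, 6 genes and 0 members under saline, and 30 genes and 1 member under DCZ; Crtc1 (-0.048) and Crtc2 (-0.058) in Th-Cre, Sik1 (0.14), Crtc2 (-0.036) and Crtc3 (0.011) in WT, Crtc2 (-0.022) and Creb1 (-0.11) in the interaction, and Sik1 (0.29) and Creb1 (0.059) under saline turned. Without the 6 libraries with muscle transcripts 7, 0 and 4 genes passed, 109 genes and 0 members under saline and 535 genes under DCZ; Crtc1 (-0.15) in Th-Cre, Sik1 (0.037) and Sik3 (-0.017) in WT, Sik2 (0.053) in the interaction, Sik1 (0.038) and Crtc1 (0.043) under saline, Crtc3 (-0.018) between the sexes and Sik1 between the sexes in Th-Cre (0.15, with 1 saline female left) turned.

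Leaving out 1 library at a time, the genes called ranged from 3 to 18 for DCZ in Th-Cre: 18 with Th-Cre DCZ mouse DN2091 left out, 6 with saline mouse DN2094 and 5 with either DN2087 (saline) or DN2207 (DCZ). In WT they ranged from 0 to 39: 39 with saline mouse 2 left out and 0 with any of DCZ mice 1, 3, 4, 5 and 6 or saline mice 7, 8 and 9. In the interaction they ranged from 1 to 7: 7 with WT mouse 2 left out, 6 with DN2091, 4 with DN2087, 3 with WT mouse 7 and 2 with either WT mouse 3 or DN2205. They ranged from 2349 to 4270 between genotypes under saline, from 850 to 2443 under DCZ (850 with WT mouse 5 left out, 1174 with WT mouse 10, 1026 with DN2072, 1133 with DN2075 and 1111 with DN2097) and from 790 to 1162 between the sexes. Members called ranged from 0 to 0 in the 3 DCZ comparisons, from 1 to 2 under saline, from 4 to 4 under DCZ and from 0 to 1 between the sexes. Log2 values that changed sign, none of them called, ranged from -0.079 to 0.065 (Crtc1), -0.0097 to 0.084 (Crtc2) and -0.089 to 0.0060 (Creb1) for DCZ in Th-Cre, and from -0.19 to 0.14 (Sik1), -0.027 to 0.075 (Sik3), -0.14 to 0.043 (Crtc3) and -0.031 to 0.079 (Crem) in WT. They ranged from -0.23 to 0.011 (Sik2), -0.061 to 0.055 (Crtc2) and -0.049 to 0.064 (Creb1) in the interaction, from -0.20 to 0.12 (Sik1) and -0.083 to 0.0065 (Creb1) under saline, from -0.083 to 0.025 (Creb1) under DCZ and from -0.11 to 0.046 (Sik1) between the sexes in Th-Cre. The cause of these shifts was not tested. No paired analysis was possible because every library is a separate mouse and mouse numbers do not pair animals. Crtc1, at 96 to 189 counts per library, was the member least deeply covered.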
